A study of Mus musculus with 4 samples.

Results

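The genes described here are Pou5f1, Sox2, Sall4, Lin28a, Lin28b, Trim71, L1td1, Dppa4 and Dppa2, 9 of the 47885 rows of the gene count table. They were chosen by name as core pluripotency genes and genes of the Lin28-Trim71 group, and each name matched 1 row through its Ensembl identifier. All 9 passed the filter on low counts and were among the 15563 genes tested. The study sequenced RNA of 4 mouse embryos (C57BL/6), each a whole embryo in its own library at embryonic day 5.5 (E5.5). Mettl14 genotype is the only difference between the groups that the labels give. Mettl14 encodes the partner of METTL3 in the enzyme that writes N6-methyladenosine (m6A) on RNA. Per its title and design text, its question was what losing Mettl14 does to the maturing epiblast, at a stage when mutants looked like their littermates. The WT group held 2 embryos labelled Mettl14+/+ and the KO group held 2 embryos labelled Mettl14-/-.

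Per the labels' protocols, the embryos were genotyped once sequenced, from Mettl14 qPCR of leftover amplified cDNA, and an embryo that expressed Mettl14 counted as a control. Homozygous and heterozygous controls cannot be told apart that way. The sources used here do not give which part of the gene was deleted, or whether the deletion was limited to some tissues. Mettl14 stood at 34.0 and 31.6 CPM in WT replicates 1 and 2 and at 4.63 and 8.04 CPM in KO replicates 1 and 2, but because it was used to assign the groups this is not independent evidence for them. CPM is the read count scaled to the library size, with TMM factors. Library totals ran from 16108062 to 28698541 counts.

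OCT4 (the product of Pou5f1) and SOX2 bind DNA together and hold the gene network of pluripotent cells, the cells of the epiblast that can form every tissue of the body. LIN28A and LIN28B are RNA-binding proteins that block the maturation of let-7 microRNAs. Mature let-7 in turn represses Lin28a, Lin28b and Trim71 through sites in their 3′ UTRs, so that LIN28 and let-7 oppose each other. TRIM71 is an RNA-binding ubiquitin ligase that represses differentiation mRNAs, and DPPA2 and DPPA4 form a chromatin-binding pair.

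The let-7 sequences are given first because the let-7 seed is what links 3 of these genes to the microRNA. RefSeq (GRCm38.p6) held 12 let-7 family hairpins with 9 distinct mature sequences from the 5′ arm, and all 9 share the seed GAGGUAG, bases 2 to 8. The seed is in capitals below for 4 of them, shown 5′ to 3′.
mmu-let-7a-5p: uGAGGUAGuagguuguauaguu
mmu-let-7d-5p: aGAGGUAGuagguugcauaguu
mmu-let-7g-5p: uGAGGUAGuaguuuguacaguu
mmu-miR-98-5p: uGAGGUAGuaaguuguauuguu
Beyond the seed the family differs at single bases, as the lower-case letters show.

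LIN28 proteins bind the hairpin precursors of let-7, and their zinc knuckles recognise GGAG in the loop. GGAG stood between the mature arms in 9 of the 12 hairpins, and was not found there in let-7b, let-7c-2 and miR-98. An example with the letters and an example without them are shown, GGAG in capitals.
Mirlet7g hairpin: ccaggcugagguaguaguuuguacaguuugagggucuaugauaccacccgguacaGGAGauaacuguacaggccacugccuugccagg
Mirlet7b hairpin: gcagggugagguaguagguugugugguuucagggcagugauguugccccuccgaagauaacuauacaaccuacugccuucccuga
Mature microRNAs are not captured in polyadenylated libraries, and no let-7 hairpin row held more than 5 counts, so let-7 itself was not measured.

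The DNA letters that pair with the seed are CTACCTC, searched on the sense strand of the 3′ UTR of 1 main transcript per gene (GENCODE M21, build mm10). Trim71 and Lin28b each held 4 matches, Lin28a held 2, Sall4 held 1 and the other 5 genes held 0. They are shown because let-7 is known to act on Lin28a, Lin28b and Trim71 through such letters. Each line gives 15 bases before the match, the match in capitals and the next base, on the minus strand as transcribed.
Lin28a chr4:134005189-134005211: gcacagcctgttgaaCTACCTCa
Lin28a chr4:134004551-134004573: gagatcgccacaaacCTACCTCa
Lin28b chr10:45381022-45381044: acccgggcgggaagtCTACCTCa
Lin28b chr10:45378648-45378670: tatacttgttagtaaCTACCTCt
Trim71 chr9:114512472-114512494: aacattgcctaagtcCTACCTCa
Trim71 chr9:114512376-114512398: agtgataatttctatCTACCTCa
Trim71 chr9:114509047-114509069: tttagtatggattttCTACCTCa
Trim71 chr9:114509021-114509043: ttggcaaaaagttgtCTACCTCa
Sall4 chr2:168748940-168748962: agggctttaatttatCTACCTCa
Lin28b held another pair of matches, and of its 4 matches only the first printed is followed by A, the base that favours let-7 pairing sites. A match is a description of letters, not a measured site.

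Long 3′ UTRs hold more matches, so each gene was read against tested genes whose 3′ UTR was within 1.25-fold of its own length. Lin28b has a 3′ UTR of 4445 bases, and 25.5% of the 821 UTRs of like length held a match, but 0.487% held 4 or more. Trim71 has 5512 bases, and 32.8% of its 485 like UTRs held a match while 0.825% held 4 or more. For Lin28a, with 2775 bases, 15.2% of 1577 UTRs held a match and 2.09% held at least 2. The single match of Sall4 is less unusual, since 12% of 1929 UTRs of like length also held a match. Over all 13156 tested genes with a 3′ UTR, 9.14% held at least 1 match.

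GGACT, the commonest letters around m6A, was also counted in the main transcripts on the sense strand. Trim71 held 14, against a median of 9 in transcripts of like length. Of the 14, 9 lay in the 3′ UTR, which is 5512 of the transcript's 9332 bases. Lin28a held 5 against a like-length median of 4, and Sox2 held 3 against 2, all 3 in the 3′ UTR. Sall4 held 5 against a median of 5. The others were below their medians: Lin28b 4 against 5, L1td1 2 against 3, Pou5f1 1 against 2, Dppa2 1 against 3 and Dppa4 0 against 2. GGACT was present in 91.5% of all tested transcripts that have a 3′ UTR, and m6A was not measured here.

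All 9 genes were expressed in all 4 embryos, with Lin28b in KO replicate 2 the lowest value at 11.5 CPM. Levels were compared between genes per kilobase of exon (RPKM, TMM-scaled). Dppa4 was highest, with a mean RPKM of 142.9 over the 4 embryos, followed by L1td1 at 69.7, Dppa2 at 47.8 and Sall4 at 29.7. With exon lengths, that order of the first 4 held in every embryo. Pou5f1 (17.8 RPKM), Sox2 (16.4), Lin28a (13.1) and Trim71 (9.33) followed. Lin28b had a mean of 2.43 RPKM (3.84 and 2.87 in WT, 1.75 and 1.27 in KO) and was last in every embryo.

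The middle of this order was not stable. Pou5f1 exceeded Sox2 in 2 of 4 embryos, Sox2 exceeded Lin28a in 3 of 4, and Lin28a exceeded Trim71 in 3 of 4. Among tested protein-coding genes ranked by mean WT RPKM, Dppa4 lay at percentile 96.0, L1td1 at 93.5, Dppa2 at 90.3, Sall4 at 84.3 and Lin28b at 49.6. With the length of the main transcript in place of all exons, a choice made after seeing the data, the order of the 4-embryo means was the same but the order within embryos was less so. On that scale Dppa4, L1td1 and Lin28b kept their places in every embryo. Dppa2 exceeded Sall4 in 3 of 4 embryos, Sall4 exceeded Pou5f1 in 2 of 4, Pou5f1 exceeded Sox2 in 3 of 4 and Sox2 exceeded Lin28a in 2 of 4.

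The comparison of KO with WT embryos found no gene past the threshold anywhere in the table. By edgeR's quasi-likelihood test with Benjamini-Hochberg adjustment, 0 of 15563 genes (0%) had an adjusted p of 0.05 or less in either direction, and the smallest adjusted p was 0.2451. At an unadjusted p under 0.05 there were 738 genes higher in KO (4.74%) and 479 lower (3.08%). DESeq2 called 150 genes higher (0.964%) and 90 lower (0.578%), and limma-voom called 0 (0%).

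Of the 9 genes, edgeR, DESeq2 and limma-voom each called 0. The edgeR log2 fold changes (KO over WT) were above 0 for 4 genes and below 0 for 5, while 52.3% of all genes tested were below 0. Their summed level was 906.6 to 1045.1 CPM in WT and 937 to 1012 CPM in KO. The median log2 fold change was -0.09, beside -0.035 over all genes tested. Both KO embryos stood above both WT embryos for Sox2, Sall4 and Dppa4, and below both for Lin28b. Such separation by 4 of 9 genes lies near the background, since 38.2% of all genes tested had it (19.4% with KO above and 18.8% with KO below). Among the 9, Lin28b alone had an unadjusted p under 0.05, where 7.82% of all genes tested had one.

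**Figure D1:**
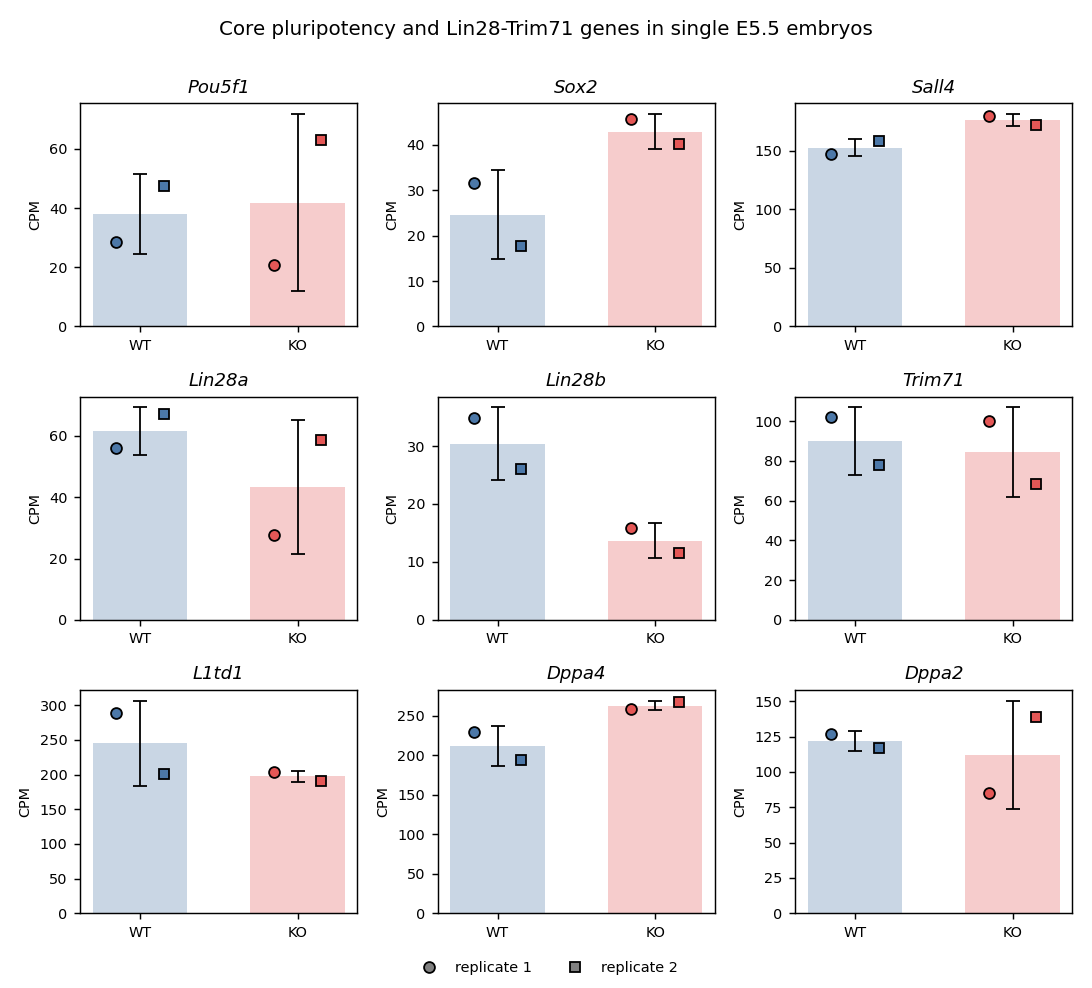
Normalised level (CPM, linear axis from 0, 1 scale per panel) of each of the 9 genes in each embryo. Points are single embryos, bars are group means and error bars are SD (n = 2 per group). Lin28b is the gene whose 2 KO embryos (15.9 and 11.5 CPM) lie below both WT embryos (34.8 and 26.0 CPM), and the KO embryos are far apart for Pou5f1 (20.7 and 63.0 CPM).

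Pou5f1 (ENSMUSG00000024406, chr17:35506018-35510772, plus strand) encodes OCT4, which is needed to form and keep the pluripotent epiblast. Its level was 28.4 and 47.5 CPM in WT replicates 1 and 2 and 20.7 and 63.0 CPM in KO replicates 1 and 2. The lowest and the highest embryo were both KO, so the groups overlapped. The edgeR log2 fold change was 0.14 (SE 0.55, adjusted p 0.9806 by the quasi-likelihood test with Benjamini-Hochberg adjustment). The 2.99-fold gap between the KO embryos was larger than that of 95.6% of 9747 genes of at least 5 CPM. Without KO replicate 2 the log2 fold change was -0.86, and without KO replicate 1 it was 0.81. In whole embryos, fewer cells of a type and less RNA per cell cannot be told apart. Pou5f1 also has pseudogene copies elsewhere in the genome, and the sources used here do not give how shared reads were counted.

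Sox2 (ENSMUSG00000074637, chr3:34650405-34652461, plus strand) encodes the partner of OCT4 and is active in the extraembryonic ectoderm as well as the epiblast. WT embryos had 31.5 and 17.7 CPM, and KO embryos 45.7 and 40.2 CPM. Both KO embryos were above both WT embryos, with means of 24.6 ± 9.80 CPM in WT and 42.9 ± 3.89 CPM in KO (SD, n = 2 each). The log2 fold change of 0.80 (SE 0.41) did not pass the test (adjusted p 0.7263, edgeR quasi-likelihood test with Benjamini-Hochberg adjustment). The WT embryos themselves differed by 0.82 log2 units, and leaving out 1 embryo gave log2 fold changes from 0.46 (without WT replicate 2) to 1.29 (without WT replicate 1).

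The balance of Sox2 to Pou5f1 therefore varied between embryos of 1 genotype. The Sox2 to Pou5f1 ratio of RPKM was 1.21 and 0.407 in WT and 2.41 and 0.697 in KO. In both groups replicate 1 had more Sox2 per Pou5f1 than replicate 2, and the groups overlapped.

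Sall4 (ENSMUSG00000027547, chr2:168748332-168767943, minus strand) encodes a zinc finger factor that works with OCT4 and keeps stem cells from differentiating. Its WT values were 147.3 and 157.9 CPM and its KO values 179.7 and 172.1 CPM. The groups did not overlap, but they lay close together, with means of 152.6 ± 7.49 CPM and 175.9 ± 5.31 CPM (SD, n = 2 each). The log2 fold change was 0.21 (SE 0.29, edgeR adjusted p 0.9351).

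Lin28a (ENSMUSG00000050966, chr4:134003330-134018841, minus strand), the LIN28 gene that dominates in early pluripotent cells, stood at 56.1 and 67.1 CPM in WT. The KO embryos had 27.8 and 58.7 CPM, so KO replicate 2 fell within the WT range while KO replicate 1 was the lowest embryo. The log2 fold change was -0.51 (SE 0.43, edgeR adjusted p 0.8649), and without KO replicate 1 it was 0.01. The KO embryos differed 2.09-fold.

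Lin28b (ENSMUSG00000063804, chr10:45376620-45486395, minus strand) encodes the second LIN28 protein. WT embryos had 34.8 and 26.0 CPM, and KO embryos 15.9 and 11.5 CPM. Both KO embryos were below both WT embryos, and the means were 30.4 ± 6.24 CPM in WT and 13.7 ± 3.07 CPM in KO (SD, n = 2 each), 2.22-fold lower in KO.

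The edgeR log2 fold change of Lin28b was -1.15 (SE 0.41, unadjusted p 0.02271, adjusted p 0.5278 by the quasi-likelihood test with Benjamini-Hochberg adjustment). It did not pass the threshold, and its p ranked 668 of 15563. Each KO embryo lay below each WT embryo by between 0.70 and 1.56 log2 units. At 11 alternative settings the log2 fold change stayed between -1.34 and -0.92, with adjusted p from 0.1805 to 0.9998. Each of those settings left it short of the threshold.

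The LIN28 pair was also compared within each embryo. Per length, the ratio of Lin28b to Lin28a was 0.274 and 0.171 in WT and 0.252 and 0.0865 in KO. Lin28a was thus the higher of the pair in all 4 embryos. KO replicate 1 fell between the WT embryos for this ratio, since its Lin28a was low as well, so the groups overlapped.

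Trim71 (ENSMUSG00000079259, chr9:114507133-114564369, minus strand) had 101.9 and 77.9 CPM in WT and 100.2 and 68.2 CPM in KO. In each group replicate 1 was the higher, the groups overlapped, and the log2 fold change was -0.09 (SE 0.36, edgeR adjusted p 0.9798). L1td1 (ENSMUSG00000087166, chr4:98726734-98738480, plus strand) derives from the open reading frame of a LINE-1 element and encodes an RNA-binding protein that associates with LIN28 in human pluripotent cells. It had 288.6 and 201.5 CPM in WT and 203.2 and 191.3 CPM in KO. WT replicate 1 stood apart above the other 3 embryos, KO replicate 1 was level with WT replicate 2, and the log2 fold change was -0.31 (SE 0.31, edgeR adjusted p 0.8932).

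Dppa4 (ENSMUSG00000058550, chr16:48283733-48294237, plus strand) and Dppa2 (ENSMUSG00000072419, chr16:48303908-48319723, plus strand) are neighbours on the chromosome. Their proteins bind each other and act together on chromatin, in mouse embryonic stem cells at the promoters of Dux and of germline genes. Dppa4 had 229.7 and 194.0 CPM in WT and 258.7 and 267.4 CPM in KO, with means of 211.8 ± 25.3 CPM and 263.1 ± 6.13 CPM (SD, n = 2 each). Both KO embryos were above both WT embryos, and the log2 fold change was 0.31 (SE 0.29, edgeR adjusted p 0.878). Dppa2 had 126.7 and 117.1 CPM in WT and 85.04 and 139.2 CPM in KO, so the KO embryos lay on either side of the WT embryos. Its log2 fold change was -0.12 (SE 0.35, edgeR adjusted p 0.9761).

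Although the genes are adjacent, their values did not move together in KO replicate 1, which had the lowest Dppa2 and a Dppa4 level near that of KO replicate 2. The ratio of Dppa4 to Dppa2 per length was 2.67 and 2.44 in WT, 4.48 in KO replicate 1 and 2.83 in KO replicate 2. Both KO ratios were above both WT ratios, though KO replicate 2 lay close to WT replicate 1. No background share was computed for ratios, and 38.2% of single genes tested had separated groups.

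**Figure D2:**
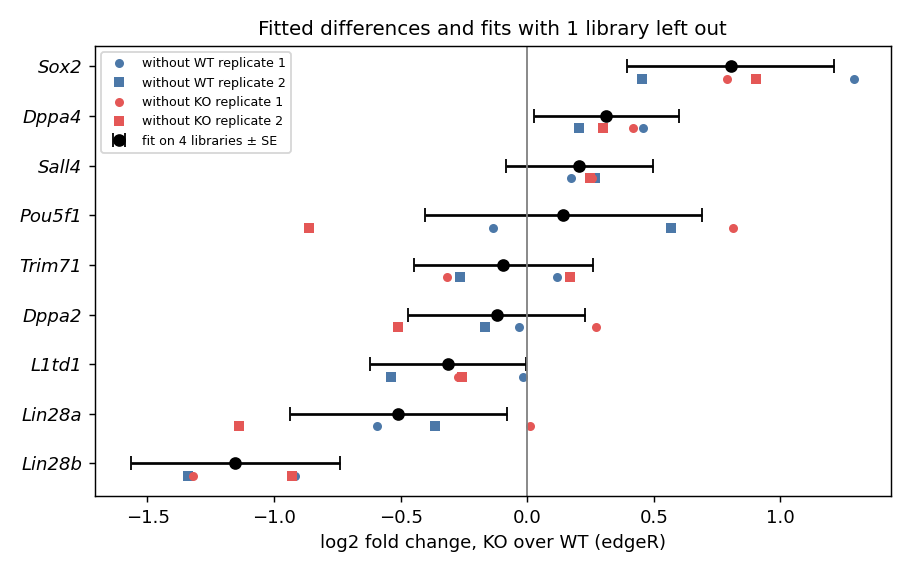
The edgeR log2 fold change (KO over WT) of each of the 9 genes with its SE, beside the value with each of the 4 embryos left out. Lin28b and L1td1 stay below 0 and Sox2, Sall4 and Dppa4 stay above 0 whichever embryo is left out, while Pou5f1, Lin28a, Trim71 and Dppa2 cross 0.

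Exons of 4 genes overlap an antisense gene, which matters because Smart-Seq reads do not mark their strand. Pou5f1 shares 317 bases with Gm19553, Lin28a 234 bases with Gm13061, Sall4 526 bases with Gm14261 and Trim71 135 bases with C130032M10Rik. None of these antisense rows held more than 12 counts in an embryo. Reads of the pairs cannot be told apart where they overlap.

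The other pluripotency network genes listed numbered 20, all tested, and edgeR called 0 of them. Their log2 fold changes were above 0 for 12 and below 0 for 8, with a median of 0.25 (0.09 without KO replicate 1). Both KO embryos were above both WT embryos for 6 of them and below for 2, a share of separated genes near the 38.2% of all genes tested. Mycn, a MYC family factor of proliferating stem cells, had 80.4 and 83.0 CPM in WT and 182.7 and 122.1 CPM in KO, a log2 fold change of 0.90 (SE 0.34). Zfp42, the naive-state marker also called Rex1, had 99.6 and 111.8 CPM in WT and 220.2 and 118.8 CPM in KO. Its log2 fold change was 0.68, but 0.25 without KO replicate 1 and 1.07 without KO replicate 2. For Epcam, an epithelial adhesion protein of stem cells, it was -0.44 (-0.20 without KO replicate 2).

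For let-7 biogenesis and decay, the 21 listed genes were all tested, 0 were called, and the median was -0.11 (between -0.25 and 0.02 with 1 embryo left out). Log2 fold changes were above 0 for 8 and below 0 for 13, and 1 had both KO embryos above both WT embryos against 5 with both below, a smaller share of separated genes than the 38.2% of all genes tested. None differed by 1 log2 unit, and the smallest p-values belonged to Dgcr8 (log2 fold change -0.82), the partner of the microRNA processor Drosha, to Ago2 (-0.62), the effector of microRNA silencing, and to Hnrnpa1 (-0.56), which binds let-7 precursors. Dgcr8 had 35.5 and 36.1 CPM in WT and 28.8 and 11.6 CPM in KO, and its log2 fold change was -0.30 without KO replicate 2 and -1.54 without KO replicate 1. Without KO replicate 2 the value of Ago2 was -0.41, and without WT replicate 2 that of Hnrnpa1 was -0.25. Exons of Dgcr8 and of Ago2 overlap an opposite-strand gene (Trmt2a by 825 bases and Chrac1 by 219).

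Of 27 listed let-7 targets, 26 were tested, and Acvr1c had 0 counts in all embryos. Again edgeR called 0. DESeq2 called Myc and Ccnd2 higher and Peg10 lower, beside 0.964% higher and 0.578% lower of all genes tested. Log2 fold changes of the tested targets were above 0 for 11 and below 0 for 15, with a median of -0.09 (-0.06 to 0.05 with 1 embryo left out). The groups were separated for 14 of them, with KO above for 7 and below for 7, beside 19.4% and 18.8% of all genes tested. Matches to the let-7 seed in the 3′ UTR of the main transcript were found for 17 of the 26 (65.4%), beside 9.14% of all tested genes with a 3′ UTR. The median 3′ UTR was 2845 bases in the list and 928 bases over all, and longer ones hold more matches. Since the genes were listed as let-7 targets, the share is a description only.

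The 5 listed let-7 targets that differed by at least 1 log2 unit with the groups separated went in both directions. Over all genes tested 16.5% met both conditions, so 5 of 26 lies near the background. Ccnd2, a G1 cyclin, had 8.78 and 6.68 CPM in WT and 21.5 and 37.9 CPM in KO (log2 fold change 1.94, SE 0.47, edgeR adjusted p 0.3623). Myc, the proliferation factor, had 86.7 and 137.7 CPM in WT and 336.3 and 232.7 CPM in KO (1.34, SE 0.36, edgeR adjusted p 0.3908). Arid3a, a DNA-binding factor of the trophoblast, and Cdk6, a G1 kinase, had log2 fold changes of 1.26 (0.57 without KO replicate 1) and 1.04 (0.66 without WT replicate 2). Peg10, an imprinted gene of the placenta, was the one with lower values in KO, with 83.4 and 71.8 CPM in WT and 28.2 and 14.03 CPM in KO (-1.88, SE 0.43, edgeR adjusted p 0.3281). Of these 5 genes only Arid3a held a seed match in its main transcript, and it held 2.

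For the mRNAs linked to TRIM71, 9 were listed, 7 were tested and edgeR called 0. DESeq2 called Egr1 higher, beside 0.964% of all genes tested. The median log2 fold change was -0.16 (-0.28 to 0.10 with 1 embryo left out). Log2 fold changes were above 0 for Cdkn1a and Egr1 and below 0 for the other 5. Both KO embryos were above both WT embryos for 2 of the 7 and below for 2, beside 19.4% and 18.8% of all genes tested. Over all genes tested 16.5% differed by at least 1 log2 unit with the groups separated, the rule by which genes are named here. Cdkn1a, the p21 inhibitor of the cell cycle, had 22.7 and 14.6 CPM in WT and 26.5 and 78.7 CPM in KO (log2 fold change 1.497, SE 0.55). That value rests on KO replicate 2, without which it was 0.52. Egr1, an immediate early transcription factor, had 4.42 and 2.41 CPM in WT and 72.2 and 18.8 CPM in KO (3.74, SE 0.71, edgeR adjusted p 0.2745). Rbl1 (-1.003, SE 0.43) and Rbl2 (-1.18, SE 0.76), pocket proteins of the cell cycle, had lower values in KO. The value of Rbl2 rests on few reads, at most 62 per embryo and only 26 for KO replicate 1. Exons of Rbl2 also share 693 bases with the opposite-strand gene Aktip, whose row held 962 to 2057 reads per embryo. Where they overlap, reads of these genes cannot be told apart.

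Of 15 genes linked to DPPA2 and DPPA4, 14 matched a row and 5 passed the filter on low counts. Zscan4d, Zscan4f, Duxf3, Zfp352, Tcstv1 and Tcstv3, all markers of the 2-cell stage, had 0 counts in every embryo. A count of 0 in both embryos of a group allows up to 0.0841 CPM in WT and 0.0611 CPM in KO (3 counts over the group, counting error only). That bound does not cover reads shared between gene copies, since how these were counted is not given. The 5 tested genes had a median of -0.83 (-0.38 without KO replicate 1, when 6 were tested), with 1 above 0 and 4 below. Both KO embryos lay below both WT embryos for 4, where 18.8% of all genes tested did. The named germline genes were Dppa3 (log2 fold change -1.41, but -0.76 without KO replicate 1), Hormad1 (-0.92) and Ddx4 (-0.70, but -0.45 without KO replicate 1), and edgeR called 0 of the 5.

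**Figure D3:**
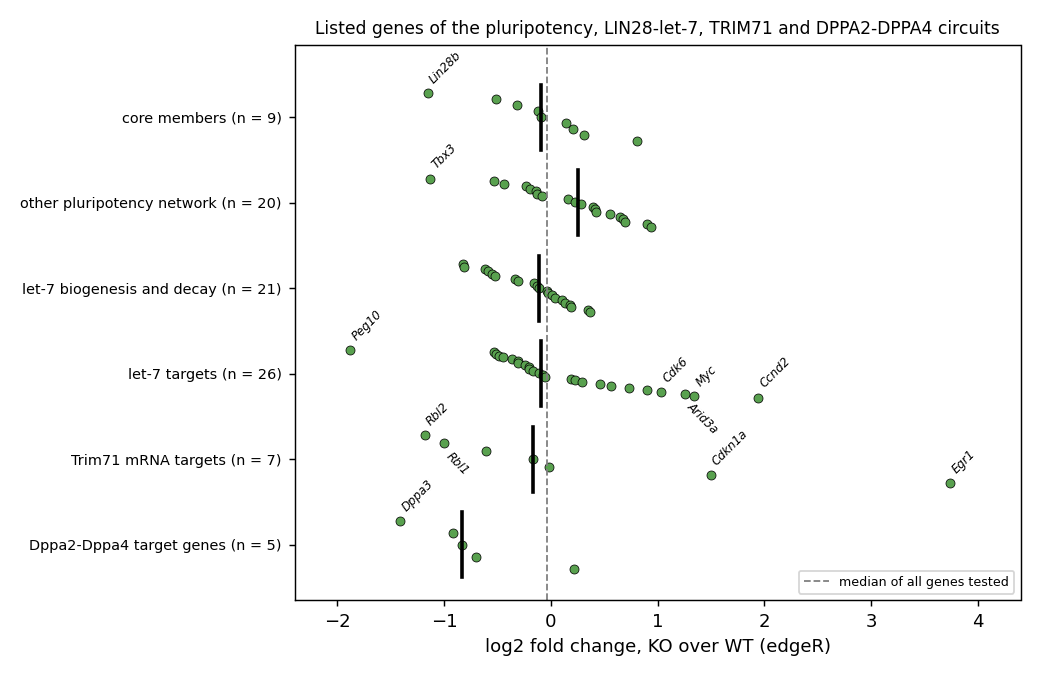
The edgeR log2 fold change (KO over WT) of every tested gene in 6 lists, 1 point per gene, with a black bar at the median of each list and a dashed line at the median of all genes tested (-0.035). Genes with a change of at least 1 log2 unit are named, and no point passed the adjusted threshold.

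Markers of the tissues in a whole embryo were summed beside these results, because the 9 genes are read against all RNA in it. Of 12 epiblast markers, 5 log2 fold changes were above 0 and 7 below, the summed level was 2733 to 2764 CPM in WT and 2071 to 3147 CPM in KO, and none was at 0. Of 12 extraembryonic ectoderm markers, 7 were above 0, and the sum was 834 to 1192 CPM in WT and 841 to 1300.4 CPM in KO, with none at 0. The groups overlapped in both of these sums. Of 9 blood and immune markers 4 were tested, Hbb-bs and Lyz2 were at 0 in every embryo, and the sum was 4.17 to 5.25 CPM in WT and 5.06 to 5.71 CPM in KO.

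For 3 other tissues the summed levels did not overlap between the groups, though edgeR called 0 of their genes. Of single genes tested 38.2% had separated groups, and no such share was computed for sums. DESeq2 called 8 visceral endoderm markers and 2 decidua markers lower and 3 trophoblast markers higher in KO. Over all genes tested it called 0.578% lower and 0.964% higher. Of 17 tested visceral endoderm markers, 15 log2 fold changes were below 0 (median -1.88, but -0.85 without WT replicate 2), and the sum was 969 to 2550.4 CPM in WT and 409 to 512 CPM in KO, with none at 0. Of 10 listed trophoblast giant cell and ectoplacental cone markers 6 were tested, and all 6 were above 0 (median 3.34). The sums were 374 to 575 CPM in WT and 1049.6 to 1858 CPM in KO. Prl3d1 (0 and 13 counts in WT) and Prl7a1 (5 and 0) passed the filter on low counts only with their KO counts. Their direction therefore follows in part from the filter. The markers Prl2c2, Tpbpa and Ctsq were at 0 in every embryo. Since how shared reads were counted is not given, a 0 need not mean that the transcript was absent. Of 12 listed maternal decidua markers 7 were tested, and 6 were below 0 (median -1.99, but -1.06 without WT replicate 1). The sum was 22.1 to 29.8 CPM in WT and 6.61 to 7.89 CPM in KO, with Hoxa11 at 0 throughout. Hoxa10 (0 and 0 counts in KO) and Col1a2 (0 and 1) passed the filter only with their WT counts, so the same limit holds for them. The part of these tissue differences in the values of Sox2, Sall4, Lin28b, Dppa4, Peg10 and the other genes above was not tested.

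**Figure D4:**
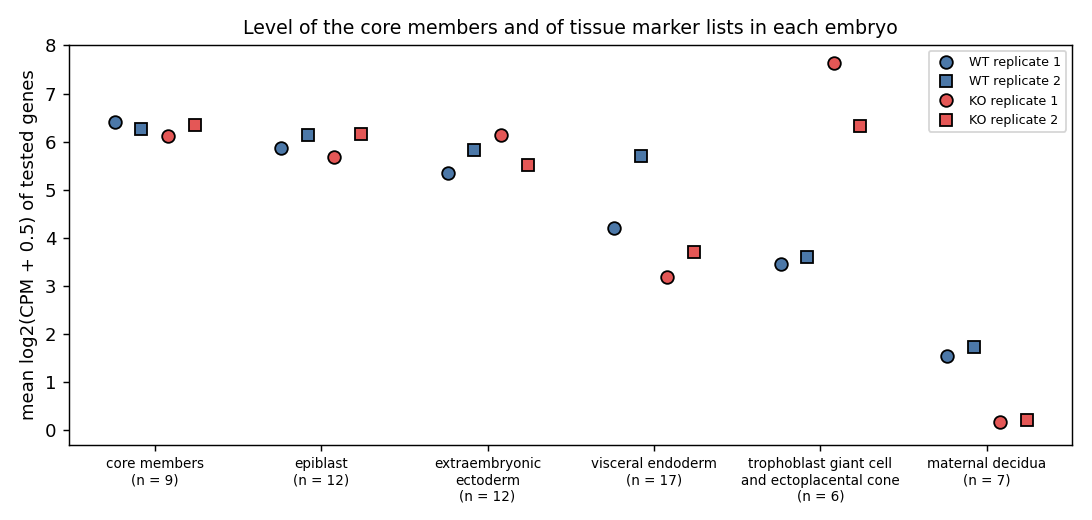
Mean log2(CPM + 0.5) of the tested genes of the 9 core genes and of 5 tissue marker lists in each embryo, 1 point per embryo. The core genes lie between 6.12 and 6.41 in all 4 embryos, while the visceral endoderm and decidua means are lower in both KO embryos and the trophoblast giant cell mean is higher. Prl3d1, Prl7a1, Hoxa10 and Col1a2 passed the filter on low counts only with the counts of the group where they are high.

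Set against the epiblast markers of the same embryo, Lin28b was again lower in both KO embryos. Its log2 level minus the mean of the 12 epiblast markers was -0.73 and -1.41 in WT and -1.66 and -2.57 in KO. Lin28a, which overlapped between groups in CPM, was below both WT embryos on this scale, at -0.06 and -0.06 in WT and -0.87 and -0.27 in KO. Sox2 was above, at -0.88 and -1.96 in WT and -0.16 and -0.81 in KO. The other 6 genes overlapped, Sall4 and Dppa4 among them, which were separated in CPM. On this scale 34.6% of all genes tested had separated groups (22.5% with KO above and 12.1% with KO below), so 3 of 9 lies near the background. This scaling was chosen after seeing the data, and 3 of its markers, Otx2 (log2 fold change -0.97), Sox3 (-1.12) and Dnmt3b (-0.72, but -0.44 without WT replicate 1), had lower values in KO themselves.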

How the data were processed

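Polyadenylated RNA of each E5.5 embryo was amplified by Smart-Seq v4 and read as pairs, per the labels' protocols. The deposited values are raw counts of reads, 1 row per gene. The submitters' processing notes name TopHat, Cufflinks and mm10 with no version. The sources used here do not give the counting program, its strand setting or the annotation. GENCODE M21 named 46574 of 47885 rows, and rows with no match there held 0.145 to 0.298% of counts.

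Totals were 16108062 and 20121289 (WT replicates 1 and 2) and 20248636 and 28698541 (KO replicates 1 and 2), where 1 count is 0.059, 0.0534, 0.0472 and 0.0359 CPM. All 4 embryos entered edgeR (version 4.0.16, R 4.3.3), with TMM, the robust quasi-likelihood F test and the filterByExpr defaults of a count of 10 and a total of 15, Benjamini-Hochberg adjusted over 15563 genes at a threshold of 0.05. SE is the size of the log2 fold change over the root of F. P-values reflect the spread of these 4 embryos alone, and an exact permutation test of 2 against 2 cannot go below 0.333. Alternatives were DESeq2 1.42.0, limma-voom (limma 3.58.1), RLE scaling, library totals, no low-count filter, at least 50 counts in 2 libraries, a replicate block and each embryo left out.

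The 9 genes and the 11 other lists were chosen with earlier results of these data known, and some genes stand in more than 1 list. Named are all 9 genes and Mettl14; in the 2 let-7 lists and the TRIM71 list every gene at or past 1 log2 unit with separated groups, or, where a list had none, its 3 with the smallest unadjusted p; and in every other list the 3 with the smallest unadjusted p. Main transcripts were chosen among those with a 3′ UTR.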

Additional observations from a re-analysis of the deposited data

How the results depend on the processing

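Of the 9 core genes, 0 were called in all 11 alternatives, while the count over all genes varied. Genes called higher and lower in KO numbered 150 and 90 with DESeq2 and 157 and 101 with no low-count filter, and 0 with limma-voom, RLE scaling, library totals and the filter of 50 counts. Leaving out 1 embryo gave 14 to 133 higher and 1 to 209 lower, most without KO replicate 1. The median log2 fold change of the core genes ran from -0.26 to 0.26 (0.255 without KO replicate 1). The cause was not tested.

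Log2 fold changes that changed sign were Pou5f1 (-0.14 without WT replicate 1 and -0.86 without KO replicate 2, range -0.86 to 0.81), Lin28a (0.012 without KO replicate 1, range -1.14 to 0.012), Trim71 (0.12 without WT replicate 1 and 0.17 without KO replicate 2, range -0.32 to 0.17), Dppa2 (0.27 without KO replicate 1, range -0.51 to 0.27) and the immune marker H2-Eb1 (0.39 without KO replicate 2, range -3.28 to 0.39). Sox2 (0.46 to 1.29), Sall4 (0.17 to 0.27), Dppa4 (0.21 to 0.46), L1td1 (-0.54 to -0.02) and Lin28b kept theirs in all 11. Among the genes named from the lists, Myc was called with DESeq2 (log2 fold change 1.34) and with no low-count filter (1.35). Both settings also called Ccnd2, Peg10, Egr1 and Mettl14 (log2 fold change -2.81 without KO replicate 2). Tissue markers were called as well, where DESeq2 called 0.964% of all genes tested higher and 0.578% lower. DESeq2 called 8 of 17 visceral endoderm markers and 2 of 7 decidua markers lower. It called 3 of 6 trophoblast giant cell and ectoplacental cone markers higher. With no low-count filter these were 8 of 18, 3 of 11 and 3 of 7, plus 1 extraembryonic ectoderm marker lower. The fit with no low-count filter called 157 genes higher and 101 lower in all, and no share of all genes was computed for it. Where the filter was used, Prl3d1, Prl7a1, Hoxa10 and Col1a2 passed it only with counts of the group where they are high. The direction of these markers therefore follows in part from the filter. Without KO replicate 1, the log2 fold changes were 2.38 for Ccnd2, -2.39 for Peg10, 2.55 for Egr1 and 2.16 for Cdkn1a. That of Egr1 was 4.22 without WT replicate 1 and 4.42 without KO replicate 2.

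The replicate block gave 52 genes higher and 19 lower among 15563 tested, with Peg10 (-1.96) and Egr1 (3.52) among them, and a Pou5f1 log2 fold change of -0.018. It also called 4 of 17 visceral endoderm markers lower and 2 of 6 trophoblast giant cell and ectoplacental cone markers higher. The limit from the filter given above holds here too. No label ties a replicate number to a litter or a day, and replicate differences of the 2 groups correlated at 0.355 across genes. With 2 pairs and no background computed for it, that correlation is a description only, and whether same-numbered embryos share more than a number cannot be told.

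With the main transcript as length, WT RPKM was 27.9 for Pou5f1, 30.1 for Sall4, 17.6 for Lin28a, 5.63 for Lin28b and 143.2 for Dppa4.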

Other observations

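The genes most like Pou5f1 across the 4 embryos were Iba57, a mitochondrial iron-sulfur protein, Tuba1a, an alpha-tubulin, Foxh1, a NODAL pathway factor, Slc25a1, the mitochondrial citrate carrier, and Mapre2, a microtubule end-binding protein. Their centred log2 CPM differed from that of Pou5f1 by a root mean square of 0.05 to 0.10 over 4 libraries, the smallest of 9237 genes compared. Foxh1 had 33.0 and 49.7 CPM in WT and 20.1 and 69.6 CPM in KO, low in KO replicate 1 and high in KO replicate 2 as Pou5f1 was. The likeness rests on 4 points and is a description only.

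Among the core genes themselves, Sall4 and Dppa4 had the smallest root mean square difference (0.14), followed by Trim71 and L1td1 (0.19) and Lin28a and Dppa2 (0.28). This measure is not scaled by spread, so genes that vary little come out close whatever their shape. The SD of log2 CPM over the 4 embryos was 0.128 for Sall4, 0.209 for Dppa4, 0.282 for Trim71 and 0.272 for L1td1. Whether these genes vary together was not tested. The KO embryos differed by 1.03-fold for Dppa4, 1.04-fold for Sall4 and 1.06-fold for L1td1, and by 2.09-fold for Lin28a and 2.99-fold for Pou5f1. Trim71 per Lin28a, by length, was 0.779 and 0.497 in WT and 1.54 and 0.498 in KO, highest in KO replicate 1.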
